A study of Mus musculus with 24 samples.

Results

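The genes followed here move pyruvate and lactate across membranes or send pyruvate somewhere other than oxidation. The 9 genes were a fixed list of pyruvate carrier, lactate dehydrogenase, pyruvate carboxylase, alanine transaminase and monocarboxylate transporter genes (Mpc1, Mpc2, Ldha, Ldhb, Pcx, Slc16a1, Slc16a3, Gpt and Gpt2). They are 9 of the 55416 genes in the count table, and all 9 were among the 16408 genes with enough counts to be tested. RNA of gastrocnemius, a leg muscle of mixed fiber type, was sequenced from 24 mice of strain C56BL6J as labelled (C57BL/6J in the methods). The mice were wild type and were bought at 8 weeks of age. Each group of sham males, SMC males, sham females and SMC females held 6 mice. SMC mice lived for 8 weeks in a small mouse cage that restricts spontaneous movement, and sham mice stayed ambulatory. The comparisons asked whether restricted movement, sex, or the pairing of both went with a different mRNA level of these genes.

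Pyruvate, the end product of glycolysis, stands at a branch point. The carrier formed by MPC1 and MPC2 brings it into mitochondria, lactate dehydrogenase converts it to lactate and back, pyruvate carboxylase turns it into oxaloacetate, and alanine transaminases exchange it with alanine. In muscle the LDHA subunit and the lactate exporter MCT4 (Slc16a3) are known as features of fast glycolytic fibers, and the LDHB subunit and MCT1 (Slc16a1) as features of slow or oxidative fibers.

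Libraries held 23026627 to 36880413 counts, and 0 of 24 went against the labelled sex by Xist and Ddx3y. The defining genes of skeletal muscle were present in every library. Male sham 4 and female sham 7 stood apart from the other 22 libraries by slow fiber and myoglobin genes, which are outside the list. Their slow fiber score, the mean of 10 slow fiber genes in log2 CPM (counts per gene scaled to equal library size), was 2.01 and 1.45, against 5.46 to 8.11 in the others. In both, the slow myosin gene Myh7 was at 7.99 and 7.02 CPM, against a median of 818 over all libraries, and the myoglobin gene Mb was at 175 and 145 CPM, against a median of 1108. Results for the listed genes that rest on these libraries are given with and without them. In bulk tissue, fewer fibers or cells of a type and less RNA per cell cannot be told apart.

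Per kilobase of exon, Ldha was the most abundant of the 9 mRNAs, at 388 ± 42.4 RPKM (CPM divided by exon length in kilobases, mean ± SD, n = 24). Ldhb followed at 95.7 ± 45.2 RPKM. The mitochondrial alanine transaminase Gpt2 at 44.5 ± 13.4, the lactate exporter Slc16a3 at 39.7 ± 13, the carrier subunit Mpc1 at 35.3 ± 4.87 and Pcx at 28.5 ± 14.2 RPKM came next and did not differ from their neighbours in this order beyond their spread. Mpc2 at 10.8 ± 1.92, Slc16a1 at 7.91 ± 2.60 and the cytosolic alanine transaminase Gpt at 5.62 ± 1.12 RPKM were lowest, and again neighbours lay within their spread. Length here was the union of annotated exons, which for Mpc2 came to 7344 bases, so the RPKM of a gene with long rare exons is understated. The genes varied unequally between mice. Ldhb spanned 29.9-fold between its lowest and highest library, and Slc16a1 and Pcx spanned 4.63-fold and 4.61-fold. Ldha, Mpc1 and Mpc2 spanned only 1.70-fold, 1.76-fold and 2.04-fold.

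**Figure D1:**
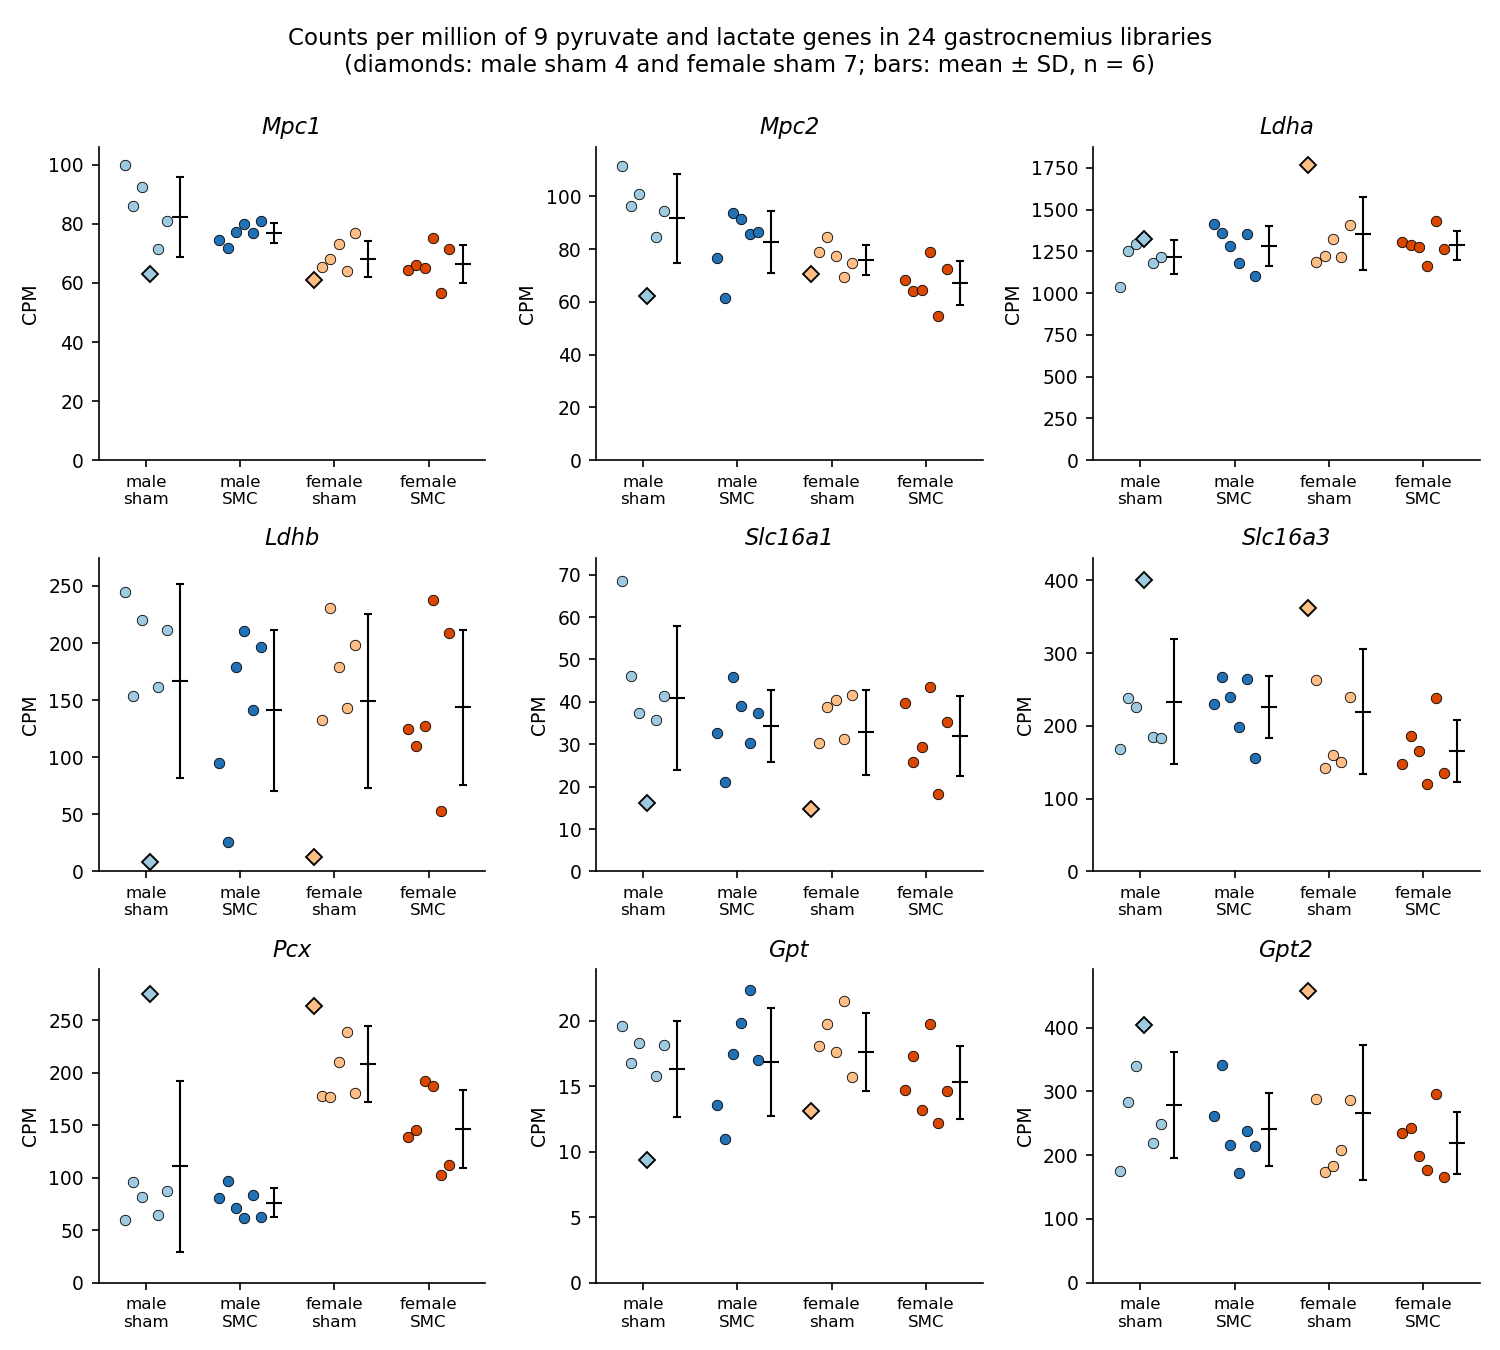
Level of each of the 9 genes in CPM (vertical axes, from 0) in the 6 mice of each group (horizontal axes), with 1 point per mouse, diamonds for male sham 4 and female sham 7, and bars for the mean ± SD. Ldhb of both diamonds sits near the axis, at 8.20 and 12.2 CPM, and Pcx of male sham 4 sits at 275 CPM among the female values.

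The start regions of the paired isoform genes and of Pcx are shown because the results below set these genes against each other. RefSeq windows in build GRCm38.p6 (250 bases before to 50 after an annotated start) existed for 8 of the 9 genes, as 11 windows. No window was given for Gpt. Capitals mark the letters ACGTG, a form of the core of the hypoxia-inducible factor site, on either strand (CACGT when read on the shown strand). Other forms of this core were not searched. CACGTG holds ACGTG on both strands, so that its matches overlap. The 250 bases before the start are printed 5′ to 3′ on the gene's strand, at chr7:46845554-46845803 (+) for Ldha, chr6:142507958-142508207 (-) for Ldhb, chr3:104638414-104638663 (+) for Slc16a1, chr11:120948817-120949066 (+) for Slc16a3 and chr19:4510222-4510471 (+) for Pcx.
Ldha: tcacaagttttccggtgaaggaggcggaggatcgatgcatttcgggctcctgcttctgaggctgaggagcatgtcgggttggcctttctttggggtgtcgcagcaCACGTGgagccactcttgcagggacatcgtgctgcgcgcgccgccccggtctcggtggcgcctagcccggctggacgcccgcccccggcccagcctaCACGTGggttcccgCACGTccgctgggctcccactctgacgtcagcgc
Ldhb: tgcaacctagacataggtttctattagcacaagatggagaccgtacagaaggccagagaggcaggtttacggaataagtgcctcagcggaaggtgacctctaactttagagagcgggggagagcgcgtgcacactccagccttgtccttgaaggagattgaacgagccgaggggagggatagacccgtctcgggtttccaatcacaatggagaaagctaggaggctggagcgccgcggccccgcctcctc
Slc16a1: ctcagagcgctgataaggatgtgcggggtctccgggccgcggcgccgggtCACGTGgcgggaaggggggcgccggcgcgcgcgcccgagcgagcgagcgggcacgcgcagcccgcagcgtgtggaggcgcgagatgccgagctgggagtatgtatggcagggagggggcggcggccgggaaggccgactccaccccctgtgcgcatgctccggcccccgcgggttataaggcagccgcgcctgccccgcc
Slc16a3: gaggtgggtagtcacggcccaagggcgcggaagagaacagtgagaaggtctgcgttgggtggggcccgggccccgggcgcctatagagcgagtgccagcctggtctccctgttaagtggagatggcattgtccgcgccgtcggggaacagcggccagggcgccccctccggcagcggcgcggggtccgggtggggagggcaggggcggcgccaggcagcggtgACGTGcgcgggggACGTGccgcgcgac
Pcx: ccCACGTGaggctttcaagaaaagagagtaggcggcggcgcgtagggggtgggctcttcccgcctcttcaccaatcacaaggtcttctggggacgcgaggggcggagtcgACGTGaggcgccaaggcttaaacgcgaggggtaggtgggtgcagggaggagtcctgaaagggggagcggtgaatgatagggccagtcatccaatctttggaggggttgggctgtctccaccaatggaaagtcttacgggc

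The core in the form ACGTG was found in 4 of the 11 windows, 1 each of Ldha, Slc16a1, Slc16a3 and Pcx. Of all 32851 RefSeq windows of this length, 19.6% hold it. Ldha had it 5 times counting both strands, in 3 stretches, 2 of them the palindrome CACGTG. Slc16a3 had 2 cores close to the start, 27 and 14 bases before it. Slc16a1 had the palindrome 200 bases before the start, and a further core 20 bases after it that is not printed. The Ldhb window, and those of Mpc1, Mpc2 and Gpt2, did not hold these letters. Nor did a further window each of Ldha (chr7:46846832-46847131) and Pcx (chr19:4594069-4594368), which are not printed. Which start the muscle used was not tested. The site AAGGTCA of the estrogen-related receptors, searched on both strands, was in 0 of the 11 windows and in 4.72% of all windows. These matches describe letters only, and no binding was measured.

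SMC against sham in males gave no call among the 9 genes (edgeR quasi-likelihood test, Benjamini-Hochberg FDR), where 0% of all genes tested were called. The same test gave 0 of 9 at an unadjusted p under 0.05, where 11% of all genes had one, and DESeq2 called 0 of 9, where it called 0.811% of all genes. In males 7 of the 9 genes had negative log2 fold changes, with a median of -0.15, against a median of -0.0044 over all genes. In females 0 of 9 were called, where 0.341% of all genes were called, 0 of 9 had an unadjusted p under 0.05, where 12.5% of all genes had one, and DESeq2 called 0 of 9, where it called 1.63%. All 9 female log2 fold changes were negative, with a median of -0.18, against -0.011 over all genes. The response did not differ detectably between the sexes for any of the 9 genes in edgeR, with 0 calls by FDR (0% of all genes), 0 at an unadjusted p under 0.05 (5.13% of all genes) and 0 by DESeq2 (0.00609% of all genes). Averaged over the sexes, 0 of 9 were called, where 2.36% of all genes were called, and 1 of 9, Pcx, had an unadjusted p under 0.05, where 17.5% of all genes had one. DESeq2 called 0 of 9 here, where it called 4.74% of all genes.

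The counts at an unadjusted p under 0.05 are given only with all 24 libraries, and they may depend on male sham 4 and female sham 7. Without both, the male log2 fold change was -0.17 (SE 0.081) for Mpc1 and -0.25 (SE 0.101) for Mpc2. With all 24 it was -0.098 (SE 0.090) and -0.15 (SE 0.115). Male Pcx went the other way, from -0.54 (SE 0.271) to -0.044 (SE 0.160). Male sham 4 and female sham 7 did not decide the counts of calls by FDR. Without both, 0 of the 9 were called with SMC in males (0% of all genes), in females (0.936%) and with the sexes averaged (3.18%). With the slow fiber score as a covariate, 0 of 9 were called in males (0.0731% of all genes) and in females (0.945%), and 2 of 9, Mpc2 and Ldhb, with the sexes averaged (4.13%). Without scaling factors 1 of 9, Pcx, was called with the sexes averaged, where 11.3% of all genes were called, 68 higher and 1793 lower against 169 and 219 with scaling, and the median log2 fold change of all genes moved to -0.14.

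**Figure D2:**
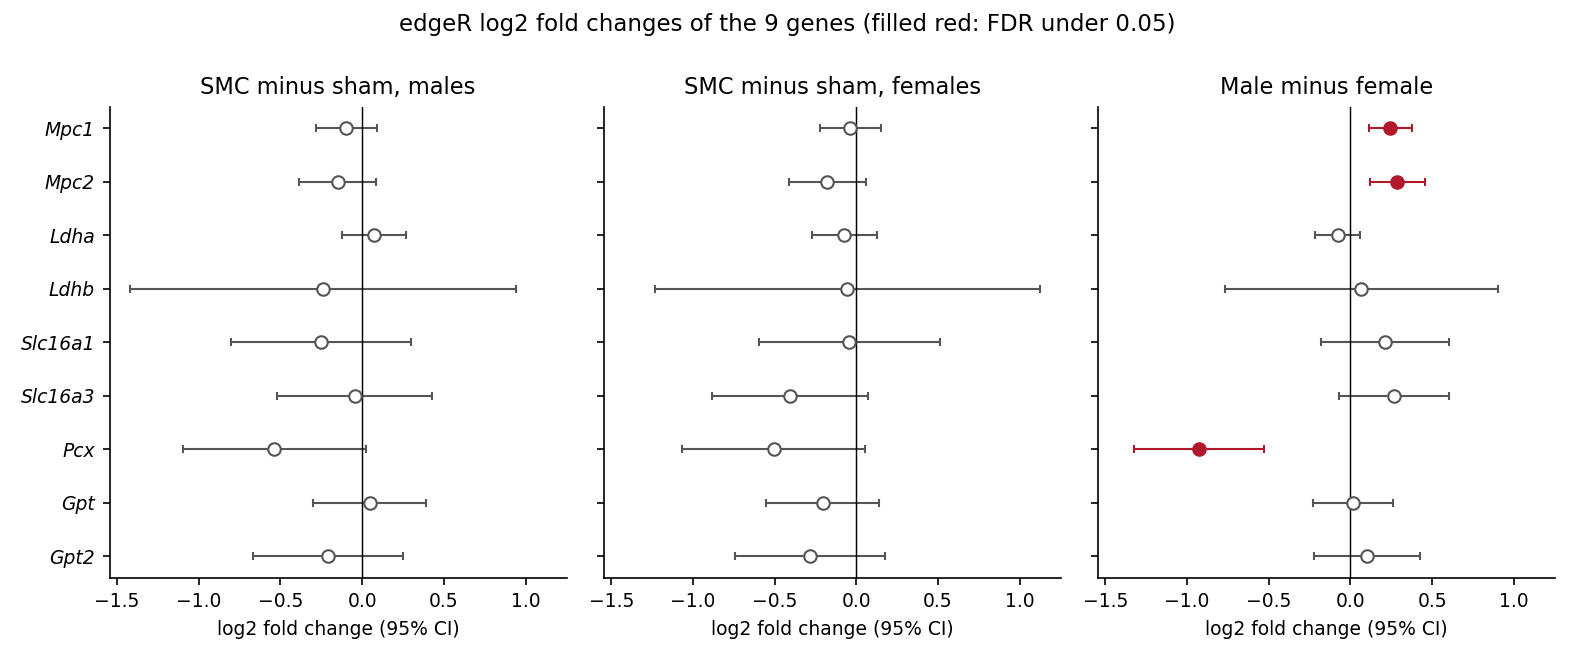
Log2 fold change with its 95% confidence interval (horizontal axes) for the 9 genes (rows) in SMC against sham in males, in females, and in males against females averaged over both housings. Every SMC interval includes 0, and 3 genes are called between the sexes (filled red): Mpc1 at 0.24, Mpc2 at 0.29 and Pcx at -0.93.

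The mitochondrial pyruvate carrier is a heterodimer of MPC1 and MPC2, and its 2 mRNAs were measured with little spread. Mpc1 (ENSMUSG00000023861) ran from 63.2 to 99.9 CPM with a median of 83.4 in male sham, from 72.0 to 80.9 with a median of 77.1 in male SMC, from 61.1 to 76.9 with a median of 66.7 in female sham and from 56.6 to 75.3 with a median of 65.5 in female SMC. Mpc2 (ENSMUSG00000026568) ran from 62.3 to 112 CPM with a median of 95.5 in male sham, from 61.6 to 93.8 with a median of 86.2 in male SMC, from 69.5 to 84.8 with a median of 75.9 in female sham and from 54.6 to 79.0 with a median of 66.5 in female SMC. Male values were mostly the higher ones in both genes, sham and SMC overlapped in either sex, and male sham 4 was the lowest male sham library for both.

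With SMC, Mpc1 was at 0.934-fold of sham in males (95% CI 0.821 to 1.06, edgeR FDR 0.754) and 0.975-fold in females (95% CI 0.857 to 1.11, FDR 0.914). Mpc2 was at 0.901-fold in males (95% CI 0.764 to 1.06, edgeR FDR 0.695) and 0.885-fold in females (95% CI 0.750 to 1.04, FDR 0.571). Without male sham 4 and female sham 7, the male log2 fold change went from -0.098 to -0.17 for Mpc1 (edgeR FDR 0.385) and from -0.15 to -0.25 for Mpc2 (FDR 0.336), and the female Mpc1 value from -0.036 to -0.061 (FDR 0.760). Other libraries moved the male values toward 0. Mpc1 was at -0.040 without male sham 1 (edgeR FDR 0.946), and Mpc2 at -0.078 without male SMC 14. Averaged over the sexes, the Mpc2 log2 fold change was -0.16 (SE 0.081, edgeR FDR 0.299), and without male sham 4 and female sham 7 it was -0.22 (FDR 0.0830). With the slow fiber score as a covariate it was -0.24 (SE 0.066, edgeR FDR 0.0424), which passed the threshold.

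Between the sexes, both carrier genes were higher in males. Among the 9 genes 3 were called in males against females averaged over sham and SMC, where 4.93% of all genes were called. The same 3 were those with an unadjusted p under 0.05, where 19.3% of all genes had one, and the 3 that DESeq2 called, where it called 6.72%. They were also called without male sham 4 and female sham 7, where 7.66% of all genes were, and with the slow fiber score as a covariate, where 8.75% were. Mpc1 was 1.18-fold higher in males (95% CI 1.08 to 1.30, log2 0.24, SE 0.064, edgeR FDR 0.0257), and Mpc2 was 1.22-fold higher (95% CI 1.09 to 1.37, log2 0.29, SE 0.081, edgeR FDR 0.0406). In sham, 4 of 6 males for Mpc1 and 5 of 6 for Mpc2 lay above the highest female, and in SMC 4 of 6 males did so for each gene. Within 1 housing the log2 difference was 0.27 in sham and 0.21 in SMC for Mpc1 and 0.27 and 0.30 for Mpc2, and neither gene was called within a housing (edgeR FDR 0.116 to 0.389). Without male sham 4 and female sham 7, the log2 difference was 0.26 for Mpc1 (edgeR FDR 0.00581) and 0.32 for Mpc2 (FDR 0.00689).

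The Mpc2 call was near the threshold. With each of the 24 libraries left out in turn it held in 6 fits, those without male sham 4 or 5, female sham 9, male SMC 14, or female SMC 22 or 24, and was lost in the other 18, with an edgeR FDR of up to 0.0771. Mpc1 was lost only without male sham 3 (edgeR FDR 0.0541). The log2 difference itself stayed between 0.22 and 0.28 for Mpc1 and between 0.26 and 0.33 for Mpc2.

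Marker genes of other cell types also differed between the sexes. Of 8 adipocyte genes, 7 were lower in males at an unadjusted p under 0.05, and 2 of them were called by edgeR FDR. Their summed level ran from 423 to 1000 CPM in male sham, from 396 to 485 in male SMC, from 612 to 1195 in female sham and from 465 to 841 in female SMC. Most of this sum was Plin4, at a median of 479 CPM, with 828 CPM in male sham 4 and 1097 CPM in female sham 7, and the sum and the adipocyte score, the mean log2 CPM of the 8 genes, order the female groups differently. The score had a mean of 2.93 in male sham, 2.74 in male SMC, 3.59 in female sham and 3.97 in female SMC. With SMC, 7 of the 8 genes had positive log2 fold changes in females (median 0.73) and 7 of the 8 had negative ones in males (median -0.35). In each sex 1 of the 8, a lower one, had an unadjusted edgeR p under 0.05. The fat hormone gene Adipoq was above 0 in every library, between 0.314 and 16.2 CPM. Of 6 Schwann cell genes, all 6 had negative log2 differences in males against females (median -0.40), 3 at an unadjusted p under 0.05 and 0 called by edgeR FDR. Of 6 endothelial genes, all 6 had positive ones (median 0.20), 2 at an unadjusted p under 0.05 and 0 called. All 6 red blood cell genes had positive ones (median 0.37), and 9 of 10 slow fiber genes had negative ones (median -0.48). In both of these lists 0 had an unadjusted p under 0.05. The part of the Schwann cell, endothelial and red blood cell genes in the sex differences was not tested. With the adipocyte score as a covariate, the sex difference was 0.16 for Mpc1 (edgeR FDR 0.204) and 0.17 for Mpc2 (FDR 0.306), so that neither was called, in a fit where 3.45% of all genes were called. Without scaling factors neither was called either (edgeR FDR 0.108 and 0.127), and Pcx alone of the 9 was, where 3.63% of all genes were called.

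Counts of Mpc1 may be shared with a near-identical copy. The processed pseudogene Mpc1-ps matched 261 bases of Mpc1 without a mismatch and had a median of 265 counts, against 1987 for Mpc1. Adding its counts to Mpc1 left the sex difference at 0.24 (edgeR FDR 0.0233). The antisense gene 4930506C21Rik shares 480 exon bases with Mpc1 and had a median of 3 counts.

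Pyruvate carboxylase, the mitochondrial enzyme that makes oxaloacetate from pyruvate and is known as abundant in liver and fat, had the lowest FDR of the 9 genes between the sexes. Pcx (ENSMUSG00000024892) ran from 59.6 to 275 CPM with a median of 84.6 in male sham and from 61.4 to 97.3 with a median of 76.0 in male SMC. It ran from 177 to 264 CPM with a median of 196 in female sham and from 102 to 192 with a median of 143 in female SMC. The highest male sham value was that of male sham 4 at 275 CPM, and the other 5 were between 59.6 and 96.2 CPM, all below every female library. In SMC, all 6 males lay below all 6 females, the only fully separate pair of groups among the 9 genes in either sex or housing, where 2.08% of all genes were fully separate between male SMC and female SMC.

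Averaged over sham and SMC, Pcx in males was at 0.526-fold of females (95% CI 0.40 to 0.693, log2 -0.93, SE 0.193, edgeR FDR 0.00484). Without male sham 4 and female sham 7 the log2 difference was -1.14 (SE 0.114, edgeR FDR 6.57e-07). The difference was of like size within sham at -0.91 (edgeR FDR 0.0820) and within SMC at -0.94 (FDR 0.108), which were not called on their own. With the adipocyte score as a covariate it was -0.78 (SE 0.196, edgeR FDR 0.0226) and remained called. In male sham 4 the adipocyte score was 4.46, the highest of the male sham libraries, which otherwise ran from 1.07 to 3.61. Its part in the Pcx level of that library was not tested.

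With SMC, Pcx was at 0.689-fold of sham in males (95% CI 0.467 to 1.02, log2 -0.54, SE 0.271, edgeR FDR 0.478). This value rests on male sham 4, because without it the log2 fold change was -0.044 (FDR 0.952). In females Pcx was at 0.704-fold (95% CI 0.478 to 1.04, log2 -0.51, SE 0.270, edgeR FDR 0.457). There 4 of 6 SMC mice lay below the lowest sham mouse, and 3 of 6 sham mice lay above the highest SMC mouse. Without male sham 4 and female sham 7, the female log2 fold change was -0.42 (SE 0.159, edgeR FDR 0.178). With both sexes averaged its log2 fold change was -0.52 (SE 0.192, edgeR FDR 0.145), and -0.23 (FDR 0.247) without the 2 libraries. The difference between the sexes in the response was -0.032 (SE 0.382, edgeR FDR 0.997), and 0.38 (SE 0.226, FDR 0.722) without them, so its sign depends on these libraries.

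The lactate dehydrogenase genes differed far more in their spread than with housing or sex. Ldha (ENSMUSG00000063229), which encodes the subunit known to favour lactate formation, ran from 1040 to 1327 CPM with a median of 1235 in male sham, from 1101 to 1412 with a median of 1318 in male SMC, from 1186 to 1769 with a median of 1273 in female sham and from 1161 to 1429 with a median of 1282 in female SMC. The groups overlapped, and the highest of all libraries was female sham 7. Ldha was at 1.05-fold of sham with SMC in males (95% CI 0.917 to 1.21, edgeR FDR 0.844) and at 0.950-fold in females (95% CI 0.829 to 1.09, FDR 0.818). The female log2 fold change of Ldha went from -0.073 to 0.022 (edgeR FDR 0.928) without male sham 4 and female sham 7. Males against females gave 0.947-fold (95% CI 0.860 to 1.04, edgeR FDR 0.571). There were 13 annotated Ldha pseudogenes at 90.7% to 95.9% identity, with medians of at most 25 counts, against 36622 for Ldha.

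Ldhb (ENSMUSG00000030246), which encodes the heart-type subunit known to favour pyruvate formation, ran from 8.20 to 245 CPM with a median of 187 in male sham, from 25.5 to 210 with a median of 160 in male SMC, from 12.2 to 231 with a median of 161 in female sham and from 52.8 to 238 with a median of 126 in female SMC. The lowest values were those of male sham 4 and female sham 7, and all groups overlapped. Its spread leaves wide intervals, with SMC at 0.847-fold of sham in males (95% CI 0.374 to 1.92, edgeR FDR 0.923) and at 0.962-fold in females (95% CI 0.425 to 2.18, FDR 0.983). A difference of less than about that width was not detectable here. Without the 2 libraries the Ldhb log2 fold change with SMC went from -0.24 to -0.50 in males (edgeR FDR 0.610) and from -0.056 to -0.30 in females (FDR 0.746). With only male SMC 14 left out, the male value was -0.020 (edgeR FDR 0.994). Males against females gave 1.05-fold (95% CI 0.588 to 1.87, edgeR FDR 0.953). The Ldhb log2 fold change averaged over the sexes was -0.15 (SE 0.404, edgeR FDR 0.897). It was -0.40 (SE 0.260, FDR 0.414) without the 2 libraries and -0.55 (SE 0.151, edgeR FDR 0.0386) with the slow fiber score as a covariate, where it was called. The pseudogene Gm5514, at 98.0% identity to Ldhb, had a median of 17 counts, against 4342 for Ldhb.

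The Ldhb to Ldha ratio of RPKM had a median of 0.323 in male sham, 0.257 in male SMC, 0.267 in female sham and 0.206 in female SMC. Within male sham it ran from 0.0130 to 0.497, and within female SMC from 0.0778 to 0.432. The ranges of all 4 groups overlapped, and the 2 lowest ratios of the series, 0.0130 and 0.0146, belonged to male sham 4 and female sham 7.

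**Figure D3:**
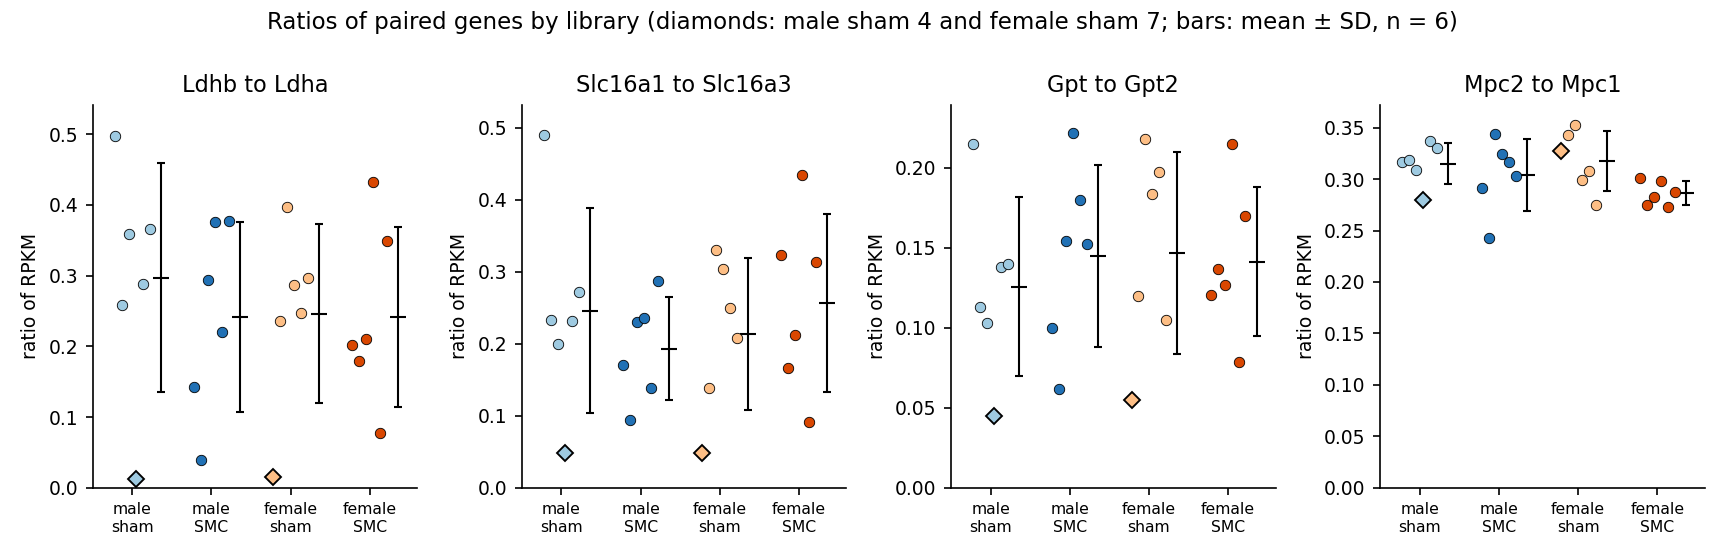
Ratio of RPKM (vertical axes, from 0) of 4 gene pairs in the 6 mice of each group (horizontal axes), with 1 point per mouse, diamonds for male sham 4 and female sham 7, and bars for the mean ± SD. The diamonds hold the lowest Ldhb to Ldha, Slc16a1 to Slc16a3 and Gpt to Gpt2 ratios, and Mpc2 to Mpc1 stays between 0.243 and 0.353 in every library.

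The monocarboxylate transporters carry lactate, pyruvate and ketone bodies together with a proton. Slc16a1 (ENSMUSG00000032902), which encodes MCT1, ran from 16.2 to 68.4 CPM with a median of 39.4 in male sham, from 21 to 45.9 with a median of 35.0 in male SMC, from 14.8 to 41.5 with a median of 35.0 in female sham and from 18.2 to 43.6 with a median of 32.2 in female SMC. Slc16a3 (ENSMUSG00000025161), which encodes MCT4, ran from 168 to 400 CPM with a median of 205 in male sham, from 156 to 268 with a median of 235 in male SMC, from 141 to 362 with a median of 200 in female sham and from 121 to 239 with a median of 157 in female SMC. In both sham groups the library with the lowest Slc16a1 was also the one with the highest Slc16a3, namely male sham 4 and female sham 7. The groups overlapped for both genes.

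With SMC, Slc16a1 was at 0.840-fold of sham in males (95% CI 0.573 to 1.23, edgeR FDR 0.792) and at 0.972-fold in females (95% CI 0.663 to 1.42, FDR 0.972). Slc16a3 was at 0.969-fold in males (95% CI 0.697 to 1.35, edgeR FDR 0.968) and at 0.755-fold in females (95% CI 0.543 to 1.05, FDR 0.498). The male Slc16a3 value changes sign without the 2 libraries, from a log2 fold change of -0.045 to 0.17 (edgeR FDR 0.760). The female value went from -0.40 to -0.20 (FDR 0.631), and Slc16a1 from -0.25 to -0.42 in males (FDR 0.406) and from -0.042 to -0.19 in females (FDR 0.708). Males against females gave 1.16-fold for Slc16a1 (95% CI 0.883 to 1.52, edgeR FDR 0.591) and 1.2-fold for Slc16a3 (95% CI 0.954 to 1.52, FDR 0.383).

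The alanine transaminases move an amino group between glutamate and pyruvate. Gpt2 (ENSMUSG00000031700), the mitochondrial enzyme, ran from 175 to 404 CPM with a median of 266 in male sham, from 172 to 341 with a median of 228 in male SMC, from 174 to 458 with a median of 248 in female sham and from 165 to 296 with a median of 217 in female SMC. Gpt (ENSMUSG00000022546), the cytosolic enzyme, ran from 9.40 to 19.6 CPM with a median of 17.4 in male sham, from 11 to 22.4 with a median of 17.2 in male SMC, from 13.1 to 21.5 with a median of 17.8 in female sham and from 12.2 to 19.7 with a median of 14.7 in female SMC. The highest Gpt2 and the lowest Gpt of each sham group were again those of male sham 4 and female sham 7, and no group was separate.

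With SMC, Gpt2 was at 0.865-fold of sham in males (95% CI 0.629 to 1.19, edgeR FDR 0.793) and at 0.822-fold in females (95% CI 0.598 to 1.13, FDR 0.657). Without the 2 libraries these became log2 fold changes of -0.087 and -0.055 (edgeR FDR 0.890 and 0.920), from -0.21 and -0.28. Gpt was at 1.03-fold in males (95% CI 0.811 to 1.31, edgeR FDR 0.956) and at 0.867-fold in females (95% CI 0.681 to 1.10, FDR 0.674). The male Gpt value had a log2 fold change of -0.080 (edgeR FDR 0.863) without the 2 libraries, so its sign is not settled. Males against females gave 1.07-fold for Gpt2 (95% CI 0.855 to 1.34, edgeR FDR 0.784) and 1.01-fold for Gpt (95% CI 0.854 to 1.20, FDR 0.961).

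Several of the 9 genes went with the slow fiber score of the same library. Because male sham 4 and female sham 7 form a cluster of their own on this score, relations were taken over the other 22 libraries, 9 in all, with permutation tests of 100000 resamples and Benjamini-Hochberg adjustment over the 9. Ldhb was positively related (Pearson r = 0.79, permutation p = 5e-05, adjusted 0.000315; Spearman rho = 0.64, permutation p = 0.00172, adjusted 0.00624). Gpt2 was negatively related (Pearson r = -0.73, permutation p = 7e-05, adjusted 0.000315; Spearman rho = -0.76, permutation p = 1e-04, adjusted 0.0009). Slc16a3 was also negatively related (Pearson r = -0.68, permutation p = 0.00029, adjusted 0.00087; Spearman rho = -0.63, permutation p = 0.00208, adjusted 0.00624). All 3 held after leaving out the next 2 extreme libraries, male SMC 14 and male SMC 13, with Pearson r of 0.59 for Ldhb, -0.69 for Gpt2 and -0.64 for Slc16a3.

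Pooled over the 22 libraries, Slc16a1 had a Pearson r of 0.51 (permutation p = 0.0164, adjusted 0.0369) and a Spearman rho of 0.36 (permutation p = 0.0972, adjusted 0.175), and r was 0.36 (permutation p = 0.121) without male SMC 14 and 13. For Ldha the Pearson r was -0.41 and the Spearman rho -0.37 (permutation p = 0.0570 and 0.0853), and for Gpt they were 0.41 and 0.21 (permutation p = 0.0573 and 0.337). Mpc1, Mpc2 and Pcx had a Pearson r of 0.12, 0.24 and 0.19 and a Spearman rho of 0.051, 0.094 and 0.17 (permutation p between 0.289 and 0.821). Over all 24 libraries, as planned, Pearson r was 0.75 for Slc16a1, -0.63 for Ldha and 0.61 for Gpt (adjusted permutation p = 4.5e-05, 0.00478 and 0.00478). Spearman rho was 0.51, -0.49 and 0.39 (adjusted permutation p = 0.0256, 0.0301 and 0.0955). These values include the cluster of male sham 4 and female sham 7.

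Within the groups more of the genes went with the score. With the mean of each group removed and labels permuted within groups, a relation chosen after seeing the data, the carrier genes were positively related, with Pearson r of 0.62 for Mpc1 (adjusted permutation p = 0.000756) and 0.82 for Mpc2 (adjusted permutation p = 0.000652). Ldhb was at 0.92 (adjusted permutation p = 9e-05, from 1e-05, the smallest that 100000 resamples can give) and Slc16a1 at 0.75 (adjusted permutation p = 0.000652). Gpt2 was at -0.74 and Slc16a3 at -0.60 (adjusted permutation p = 0.000652 and 0.0084). These 6 held with ranks within groups (adjusted permutation p from 9e-05 to 0.0119). They also held without male SMC 14 and 13, with r of 0.66, 0.67, 0.89, 0.69, -0.66 and -0.64 for Mpc1, Mpc2, Ldhb, Slc16a1, Gpt2 and Slc16a3 (adjusted permutation p from 9e-05 to 0.0122).

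Ldha was at -0.54 and Gpt at 0.56 (adjusted permutation p = 0.0292 and 0.0398). Without male SMC 14 and 13, r was -0.43 and 0.15 (adjusted permutation p = 0.0903 and 0.693). The Gpt relation rests on these 2 libraries, while the Ldha value stayed nearer its size but no longer passed. With ranks within groups Ldha was at -0.51 and Gpt at 0.38 (adjusted permutation p = 0.0428 and 0.119). Pcx was at -0.33 (adjusted permutation p = 0.167). The slow fiber list itself was not called with SMC. In males 6 of its 10 genes and in females 9 of 10 had positive log2 fold changes, with medians of 0.51 and 0.61 and with 0 at an unadjusted edgeR p under 0.05 in either sex. Male sham 4 and female sham 7 enter these values, with slow fiber scores of 2.01 and 1.45. The score ran from 6.48 to 7.51 in the rest of male sham and from 5.46 to 7.58 in male SMC. It ran from 6.76 to 7.75 in the rest of female sham and from 6.51 to 8.11 in female SMC. These ranges overlapped in both sexes, and the fold changes of the list without these libraries were not tested.

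**Figure D4:**
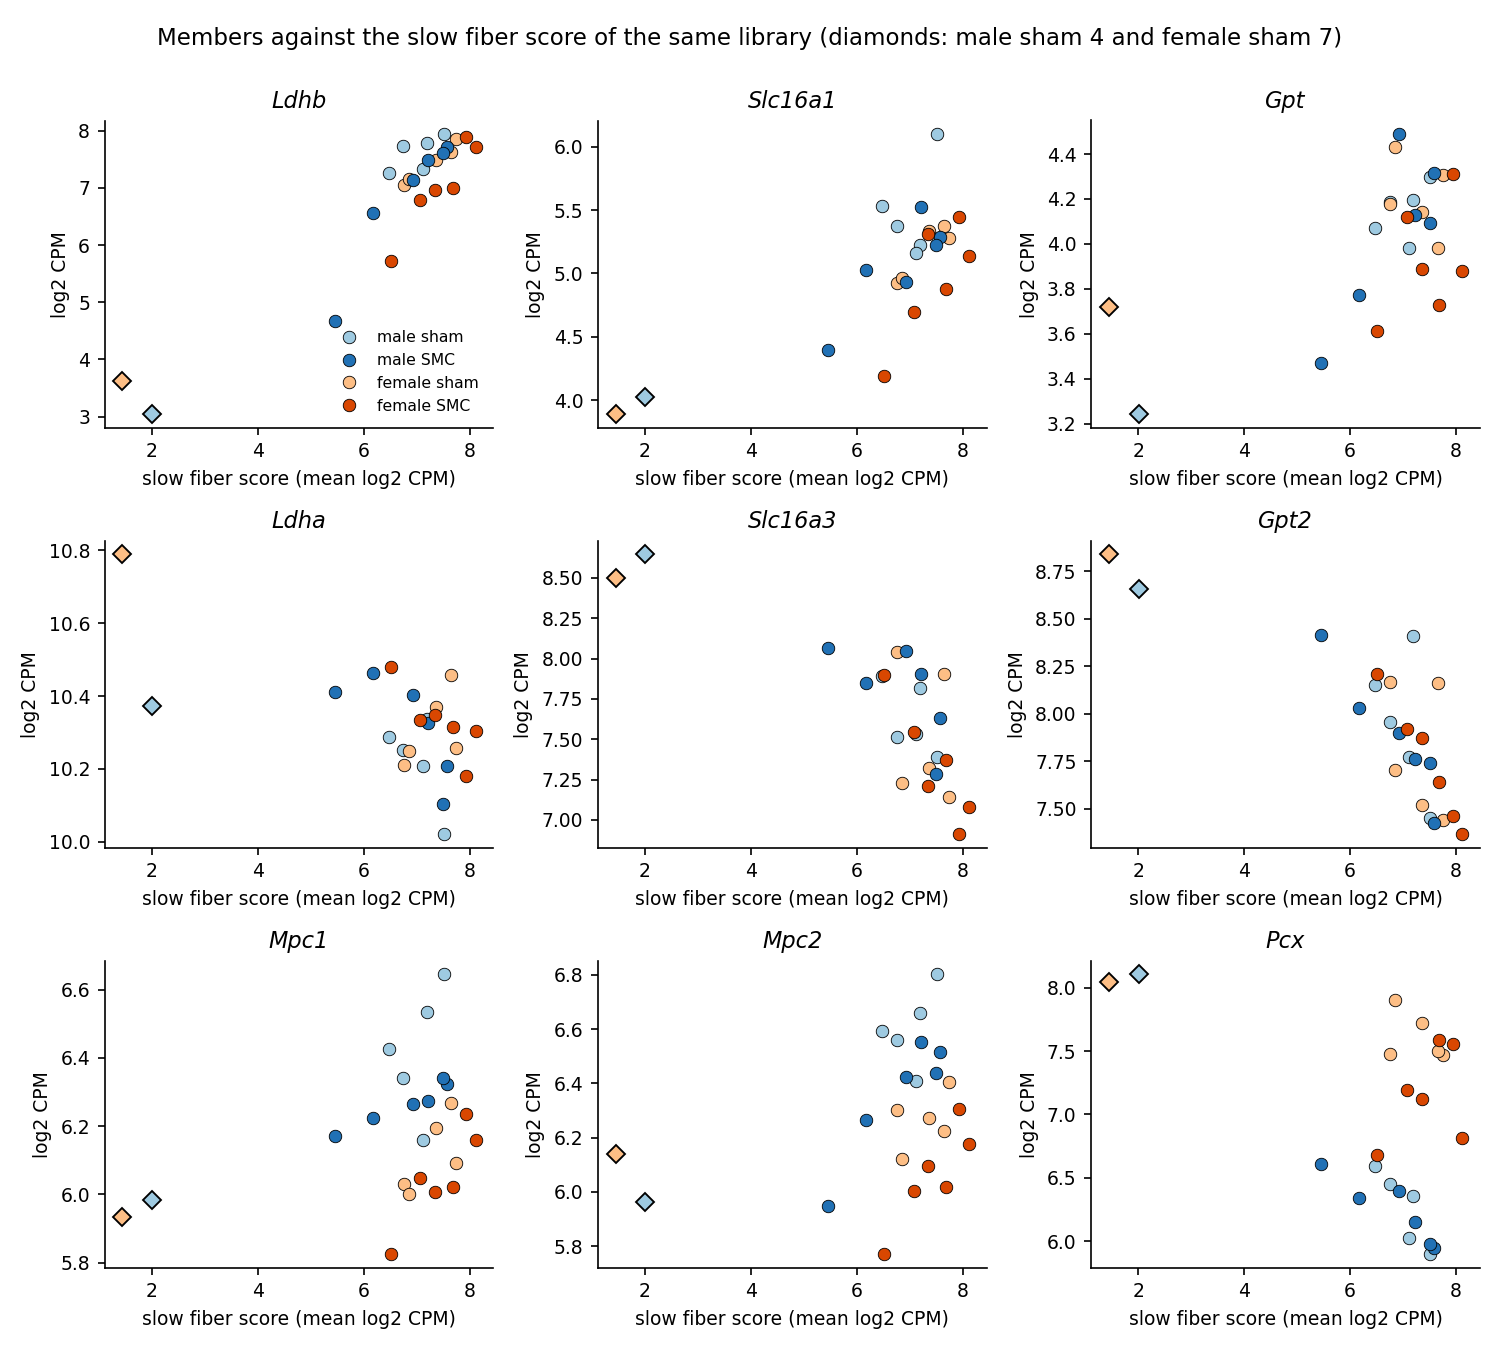
Log2 CPM of the 9 genes (vertical axes) against the slow fiber score of the same library (horizontal axes, mean log2 CPM of 10 genes), with 1 point per mouse, colored by group, and diamonds for male sham 4 and female sham 7. Ldhb increases with the score and Slc16a3 and Gpt2 decrease among the 22 circles, with Pearson r of 0.79, -0.68 and -0.73.

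Across all 24 libraries, the genes whose log2 CPM was most like that of each member were listed as a description, by Pearson r over the 16408 genes. For Mpc1 they were Ndufs4, a complex I subunit, at 0.90, Mpc2 at 0.87 and Cox7a2, a cytochrome oxidase subunit, at 0.86. For Mpc2 they were Cox5a at 0.94 and the ATP synthase subunit genes Atp5mpl and Atp5g3, both at 0.94. For Ldha they were the glycogen and glycolysis enzyme genes Pgm1 at 0.88 and Eno3 at 0.87, and the thin filament gene Tmod1 at 0.86. For Ldhb they were Myh2, the myosin heavy chain of oxidative fast fibers, at 0.99, the nuclear receptor gene Esrrb at 0.98 and the lipoprotein lipase gene Lpl at 0.98.

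For Slc16a1 the closest gene was Nceh1, a cholesterol ester hydrolase gene, at 0.96, with Mtx2 at 0.93 and the coenzyme Q gene Coq3 at 0.92. Slc16a3 and Gpt2 shared H6pd and Arfgap2 among their 3 closest genes. H6pd, a hexose-6-phosphate dehydrogenase gene, was at 0.92 with Slc16a3 and at 0.90 with Gpt2, and Arfgap2 was at 0.88 and 0.92. For Gpt2 the third was Eif2b2 at 0.90. Gpt was closest to Nudt7 at 0.84, Coq6 at 0.84 and Slc25a34 at 0.84. For Pcx they were Efhc2 at 0.88, Rhpn2 at 0.87 and Triobp at 0.87, and Efhc2 had a mean of only 0.583 CPM. All 24 libraries enter these values, male sham 4 and female sham 7 included.

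Other genes of pyruvate handling were taken from lists of 43 further genes, of which 38 were tested. In males 0 of 38 were called with SMC, beside 0% of all genes, and 1 had an unadjusted edgeR p under 0.05, beside 11% of all genes. This was the transcription factor gene Foxo1 (log2 fold change -0.86, SE 0.369, FDR 0.381). Without male sham 4 the male Foxo1 value was -0.21 (FDR 0.819). In females 1 of 38 was called, beside 0.341% of all genes. This was Pdk4, a kinase that inhibits pyruvate dehydrogenase, which fell by 1.12 on the log2 scale (SE 0.251, edgeR FDR 0.0496). This call was at the threshold and was lost in 20 of the 24 fits that left out 1 library, with a FDR of up to 0.129 (without female SMC 23). Females had 5 of 38 at an unadjusted edgeR p under 0.05, a share near the 12.5% of all genes. Besides Pdk4 these were Foxo1 at -1.30 (FDR 0.112), Emb, the ancillary protein of monocarboxylate transporters, at -0.99 (FDR 0.134), Pdp1, a pyruvate dehydrogenase phosphatase, at 0.49 (FDR 0.237), and the kinase Pdk2 at 0.23 (FDR 0.290).

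With the sexes averaged, 2 of 38 were called, both lower with SMC, beside 2.36% of all genes. Pdk4 fell by 0.82 (SE 0.176, edgeR FDR 0.0166) and Foxo1 fell by 1.08 (SE 0.262, FDR 0.0283) on the log2 scale. Without male sham 4 and female sham 7 these were -0.74 (edgeR FDR 0.0307) and -0.60 (FDR 0.0369). Leaving out 1 library lost the Foxo1 call in 3 of 24 fits, those without female sham 8, male SMC 18 or female SMC 19 (edgeR FDR up to 0.0536), and the Pdk4 call in 0. Emb at -0.53, Pdk2 at 0.19, Pdp1 at 0.32 and the phosphatase gene Pdp2 at -0.50 had an unadjusted edgeR p under 0.05 (FDR 0.128 to 0.193). The median log2 fold change over the 38 genes was 0.014, with 21 positive and 17 negative. Only Emb had an unadjusted p under 0.05 for a difference between the sexes in the response (log2 0.91, SE 0.433, edgeR FDR 0.955), and it was a low gene, with a mean of 1.96 CPM. The Emb values depend on female sham 11, without which they were -0.55 in females (edgeR FDR 0.353), -0.32 averaged and 0.48 for the difference between the sexes.

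Between the sexes, 2 of 38 were called, a share near the 4.93% of all genes. Pck1, which encodes the enzyme that turns oxaloacetate into phosphoenolpyruvate and is also known from fat, was lower in males by a log2 difference of -1.43 (SE 0.40, edgeR FDR 0.0378). Esrra, an estrogen-related receptor gene, was higher in males at 0.33 (SE 0.091, edgeR FDR 0.0369). With the adipocyte score as a covariate neither was called, with -0.41 for Pck1 (edgeR FDR 0.257) and 0.16 for Esrra (FDR 0.338). Leaving out 1 library lost the call of Pck1 in 14 of 24 fits and that of Esrra in 18 of 24, with an edgeR FDR of up to 0.0967 and 0.0722.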

How the data were processed

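Total RNA of 24 gastrocnemius muscles was depleted of ribosomal RNA and sequenced with directional libraries. The deposited values are raw counts per Ensembl gene, made by the authors. Per the labels, the submitters' processing notes name cutadapt 1.16, STAR 2.7.9a, featureCounts 1.6, DESeq2 1.34.0 and build GRCm39. The annotation release and the strand setting are not given in the sources used here.

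Genes were filtered with filterByExpr, scaled by TMM and fitted with edgeR 4.0.16 in R 4.3.3 with 1 mean per group over all 24 samples. Tests were two-sided, with Benjamini-Hochberg FDR under 0.05 over all 16408 genes as the threshold. CPM used TMM library sizes and log2 CPM a prior count of 2. RPKM used union exon lengths of GENCODE M21 (GRCm38). Alternatives were DESeq2 1.42.0, no scaling factors, no filter or at least 10 counts in every sample, only the 12 samples of a sex, limma 3.58.1 with sample weights, the slow fiber score as covariate, and libraries left out. Adding Mpc1-ps, the sex contrast within a housing and the adipocyte covariate were chosen after seeing the data, as were the relations over 22 libraries, pooled and with group means removed, where 24 had been planned.

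The members and lists were chosen with earlier results of these data known. All 9 members were named, and another pathway gene was named with an unadjusted p under 0.05 for SMC or a call between the sexes. Library totals were 23026627 to 36880413 counts, and the common biological coefficient of variation was 0.206. The labels number no animals, and each library was taken as 1 mouse, as the study describes groups of 6 mice. If libraries shared a mouse, p-values would measure only the spread between samples. Of 60 pairs of libraries within groups none was a duplicate (smallest chi-square per degree of freedom 10.7). The scripts were tested on simulated data. Of the 3 genes most like each member, 1 is not reported here.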

Additional observations from a re-analysis of the deposited data

Results flagged for a closer look

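Over 9 genes and 4 groups, 36 groups of 6 mice were checked for a library far from the rest of its group by Dixon's ratio, the gap to the nearest library divided by the group's range, with a critical value of 0.625. Chance flags about 1 in 20 such groups. The ratio was taken on CPM, where 2 of the 36 passed, both through male sham 4. Pcx in this library was at 275 CPM, the next male sham library was at 96.2 CPM, and the ratio was 0.830. Slc16a3 in this library was at 400.1 CPM, the next was at 238 CPM, and the ratio was 0.70. The ratio depends on the scale, and which groups pass on log2 CPM was not tested. On that scale low libraries stand further apart than on CPM. Ldhb was at 3.05 log2 CPM in male sham 4, with the next male sham library at 7.26. In female sham 7 it was at 3.62, with the next female sham library at 7.05.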

How the results depend on the processing

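No paired analysis was run because the labels name no pairs. Replicate numbers run on from group to group, so they cannot show whether mice were paired. The paper states that sham and SMC mice shared housing in pairs in some experiments and not in others. Depth limits Gpt most, with 227 to 747 counts per library. With the 9 genes, the count of calls stayed at 0 for SMC in males, in females and for the difference between the sexes under every alternative run. Over both sexes it was 1 without scaling factors (Pcx at -0.62, FDR 0.0273) and 2 with the slow fiber score as covariate. Between the sexes it was 3, and 1 without scaling factors (Mpc1 0.27, Mpc2 0.31), 0 within sham (Mpc1 0.27, Mpc2 0.27, Pcx -0.91), 0 within SMC (Mpc1 0.21, Mpc2 0.30, Pcx -0.94) and 1 with the adipocyte score (Mpc1 0.16, Mpc2 0.17). Without a filter on low counts Mpc2 was at 0.30 (FDR 0.0556). Over all genes tested, 0 were called with SMC in males, and 133 with DESeq2 and 12 with the slow fiber score. In females 56 were called, and 268 with DESeq2, 155 without male sham 4 and female sham 7, 155 with the slow fiber score and 215 without scaling factors. For both sexes averaged these were 388, and 778 with DESeq2, 678 with the slow fiber score and 1861 without scaling factors. Between the sexes they were 809, and 1268 without the 2 libraries and 1436 with the slow fiber score. Without scaling factors the calls in females were 13 higher and 202 lower, against 20 and 36, and those between the sexes 381 higher and 215 lower, against 392 and 417, and the median of all genes with SMC moved to -0.13 in males and -0.15 in females. Except where a library left out or the construction shows it, the cause was not tested.

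The log2 values that changed sign were none of those called. For SMC in males these were Ldha at -0.051 and Gpt at -0.098 without scaling factors, Slc16a3 at 0.046 and Gpt at -0.031 with limma, 0.17 and -0.080 without male sham 4 and female sham 7, and 0.13 and -0.023 with the slow fiber score. For females Ldha was at 0.022 without the 2 libraries and at 0.010 with the slow fiber score. For both sexes averaged Ldha, at -0.00017, was at 0.00062 with DESeq2, 0.00097 without a filter, 0.0047 with limma, 0.055 without the 2 libraries and 0.061 with the slow fiber score. For the difference between the sexes Pcx was at 0.00066 without scaling factors, 0.21 with limma, 0.38 without the 2 libraries and 0.026 with the slow fiber score. There Gpt2 was at -0.11 with limma, -0.032 without the 2 libraries and -0.060 with the slow fiber score, Mpc2 at -0.056 without the 2 libraries, and Ldhb at 0.21 with the slow fiber score. Between the sexes Gpt was at -0.11 within sham and -0.16 with the adipocyte score, and Ldhb at -0.024 within SMC and -0.48 with the adipocyte score. Over all 24 libraries Pcx had a Pearson r of -0.40 with the slow fiber score, and 0.19 without the 2 libraries.

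With 1 library left out in turn, the number called between the sexes ran from 1 to 3, Mpc1 from 0.22 to 0.28, Mpc2 from 0.26 to 0.33 and Pcx from -1.18 to -0.86. There Ldhb ran from -0.051 to 0.20 and Gpt from -0.030 to 0.078. In males Slc16a3 ran from -0.13 to 0.17 and Gpt from -0.079 to 0.14. In females Mpc1 ran from -0.070 to 0.011, Ldha from -0.11 to 0.022, Ldhb from -0.30 to 0.12 and Slc16a1 from -0.19 to 0.083. For both sexes averaged Ldha ran from -0.024 to 0.043. For the difference between the sexes Mpc2 ran from -0.076 to 0.099, Ldhb from -0.44 to 0.050, Pcx from -0.16 to 0.46 and Gpt2 from -0.16 to 0.19.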
